A study of Mus musculus with 10 samples.

Results

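The epithelial sodium channel (ENaC) and the corticosteroid axis around it were described in mpkCCD cells with and without Camk2d, the gene of a calcium/calmodulin-dependent protein kinase. The genes were chosen by symbol. They are the channel subunits Scnn1a, Scnn1b and Scnn1g, the kinase gene Sgk1, the ubiquitin ligase gene Nedd4l, the receptor genes Nr3c2 and Nr3c1, the enzyme gene Hsd11b2, the steroid target Tsc22d3 and the protease gene Prss8. These are 10 of the 55414 genes in the table, and all 10 were among the 20000 genes tested.

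mpkCCD is an immortalized principal cell line from the mouse cortical collecting duct, and the labels give its strain background as C57BL/6. The intact group had 5 samples from 3 lines, namely the parental line (wild type) and 2 samples each of intact clone 1 and intact clone 2 (here 1a, 1b, 2a and 2b). These clones had gone through the same CRISPR-Cas9 transfection but kept the protein. The KO group had 5 single-cell-derived clones, KO 1 to KO 5, with 1 sample each. Per the study's supplement, KO 1 and KO 2 carry mutations made with a guide for exon 8, and the others were made with a guide for exon 9. Cells of both groups were grown on membrane supports for 4 days in complete medium and 3 days in simple medium. The vasopressin analogue dDAVP (0.1 nM) was present throughout, and so was 50 nM dexamethasone, a synthetic glucocorticoid. There was no group without dexamethasone or with aldosterone, so levels are those under steroid and no steroid response was measured.

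ENaC is the apical route by which principal cells take up sodium, and it is built from alpha, beta and gamma subunits. Aldosterone binds the mineralocorticoid receptor, which raises transcription of genes such as Sgk1 and Scnn1a. The SGK1 kinase phosphorylates the ligase NEDD4-2, which otherwise marks the channel for removal from the membrane. Glucocorticoids can bind the same receptor, and the enzyme encoded by Hsd11b2 inactivates the natural ones before they reach it.

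Levels are the authors' TPM, which divide reads by gene length and bring every sample to the same total, so genes can be compared with each other within a sample. TPM do not carry the sequencing depth, which is unknown here. Camk2d itself, which checks the labels, was at 123 to 141 TPM in the intact samples and 19.8 to 29.8 TPM in the KO clones. Of the principal cell markers, Krt18 (a keratin), Aqp2 (the vasopressin-regulated water channel) and Fxyd4 (a subunit of the sodium pump) were the most abundant. Krt18 was at 5321 to 5754 TPM in intact and 5162 to 5550 TPM in KO samples. The markers Kcnj1 (a potassium channel) and Elf5 (a transcription factor) were at 0.19 TPM or less in every sample. The water channel genes Aqp3 and Aqp4 were low too, at no more than 3.34 and 8.54 TPM. The summed level of the 10 principal cell markers was 10625 to 12235 TPM in intact and 7544 to 10623 TPM in KO samples, with KO 1 and KO 2 lowest. Most of the sum came from Krt18 and Aqp2, and Aqp2 was at 1281 TPM in KO 1 and 1618 TPM in KO 2. Among intercalated cell markers, Atp6v1g3, Insrr and Kit were listed at 0 in every sample. The summed level of those 10 markers was 24.8 to 32.5 TPM in intact and 23.0 to 50.8 TPM in KO samples, nearly all of it from Atp6v1b1, a proton pump subunit. The 12 markers of other kidney cells summed to 7.87 to 13.4 TPM in intact and 6.66 to 15.1 TPM in KO samples, with Slc34a1, Umod, Slc12a1 and Pvalb listed at 0 in every sample. Across genes, the median correlation of a sample with the others was lowest for KO 2 (0.983) and KO 1 (0.985) and lay between 0.987 and 0.988 in the other samples.

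In GENCODE M21 on GRCm38, Scnn1g spans chr7:121734479-121768475 and Scnn1b spans chr7:121865038-121918514. Both are on the plus strand, with 96.6 kb between them and no other protein-coding gene beginning in the gap. Scnn1a lies at chr6:125320659-125344943 on the plus strand, and Sgk1 at chr10:21882184-21999903 on the plus strand. The RefSeq promoter table for GRCm38.p6 had entries for 5 of the 10 genes (Scnn1g, Scnn1b, Sgk1, Nr3c2 and Tsc22d3), with 12 start sites in all. Scnn1a, Prss8, Hsd11b2, Nedd4l and Nr3c1 were not searched. The 250 bases upstream of a start were searched for AGAACA and its complement TGTTCT, the half-site bound by the glucocorticoid and mineralocorticoid receptors, for the full palindrome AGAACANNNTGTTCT, which holds a half-site on each side, and for the GC box GGGCGG and its complement CCGCCC. Both strands were searched. A half-site is in 16.1% of the 32851 promoters of this length, and a GC box is in 32.7%. The full palindrome is in 0.00913%, or 3 of the 32851. One of those 3 is upstream of a Sgk1 start.

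The upstream sequences of Scnn1g and Scnn1b are shown because these neighbouring genes differ widely in level, and that of Sgk1 because it holds the full palindrome. All are from RefSeq GRCm38.p6, plus strand, with half-sites and GC boxes in capitals.
Sgk1, chr10:21993640-21993889: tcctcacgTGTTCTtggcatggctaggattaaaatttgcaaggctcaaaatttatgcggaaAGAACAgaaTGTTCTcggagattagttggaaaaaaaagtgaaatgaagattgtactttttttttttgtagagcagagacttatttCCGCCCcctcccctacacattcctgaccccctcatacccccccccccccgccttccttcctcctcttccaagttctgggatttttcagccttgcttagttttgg
Scnn1g, chr7:121734229-121734478: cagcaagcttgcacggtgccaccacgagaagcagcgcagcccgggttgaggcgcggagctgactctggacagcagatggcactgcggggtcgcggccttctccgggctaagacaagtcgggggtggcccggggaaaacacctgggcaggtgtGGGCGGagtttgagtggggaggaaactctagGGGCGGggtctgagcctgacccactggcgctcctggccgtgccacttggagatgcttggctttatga
Scnn1b, chr7:121864788-121865037: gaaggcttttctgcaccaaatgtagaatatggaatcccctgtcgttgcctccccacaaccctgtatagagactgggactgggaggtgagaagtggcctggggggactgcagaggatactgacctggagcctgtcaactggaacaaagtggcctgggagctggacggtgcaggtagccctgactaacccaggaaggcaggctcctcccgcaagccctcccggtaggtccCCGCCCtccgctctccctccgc

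The Sgk1 sequence holds 3 half-sites, of which 2 form the palindrome, and 1 GC box. It is 1 of 6 Sgk1 starts in the table, of which 2 others hold 1 half-site each and 3 hold none. The Scnn1g sequence has 2 GC boxes, 16 CG pairs and 65.2% G and C. The Scnn1b sequence has 1 GC box, 7 CG pairs and 60.8% G and C. The median promoter has 6 CG pairs and 52.4% G and C. Neither ENaC sequence holds a half-site, which says only that these letters are not in this window. Upstream of the 3 Tsc22d3 starts, 1 half-site was found, at chrX:140600523-140600772 (minus strand). TPM are per gene, so they do not tell which start was used.

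In the order of levels over all 10 samples, Tsc22d3 came first with a mean of 1103 TPM. Sgk1 followed with 392 TPM, Scnn1a with 175 TPM, Prss8 with 142 TPM and Nedd4l with 102 TPM. Then came Nr3c1 with 37.6 TPM, Hsd11b2 with 32.4 TPM, Scnn1g with 17.5 TPM, Nr3c2 with 1.35 TPM and Scnn1b with 0.201 TPM. In the intact samples alone, Hsd11b2 (19.5 TPM) and Scnn1g (19.4 TPM) had nearly the same mean. The gap between them came from the KO clones (45.3 and 15.6 TPM), largely from KO 2 with Hsd11b2 at 115 TPM. In KO 1, Hsd11b2 (11.5 TPM) was below Scnn1g (14.4 TPM). Several neighbours in this order did not differ beyond their spread over samples. Sgk1 was above Scnn1a in 9 of 10 samples, Nr3c1 above Hsd11b2 in 8 and Hsd11b2 above Scnn1g in 7. Nedd4l was above Nr3c1, Scnn1g above Nr3c2 and Nr3c2 above Scnn1b with no overlap over the samples.

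**Figure D1:**
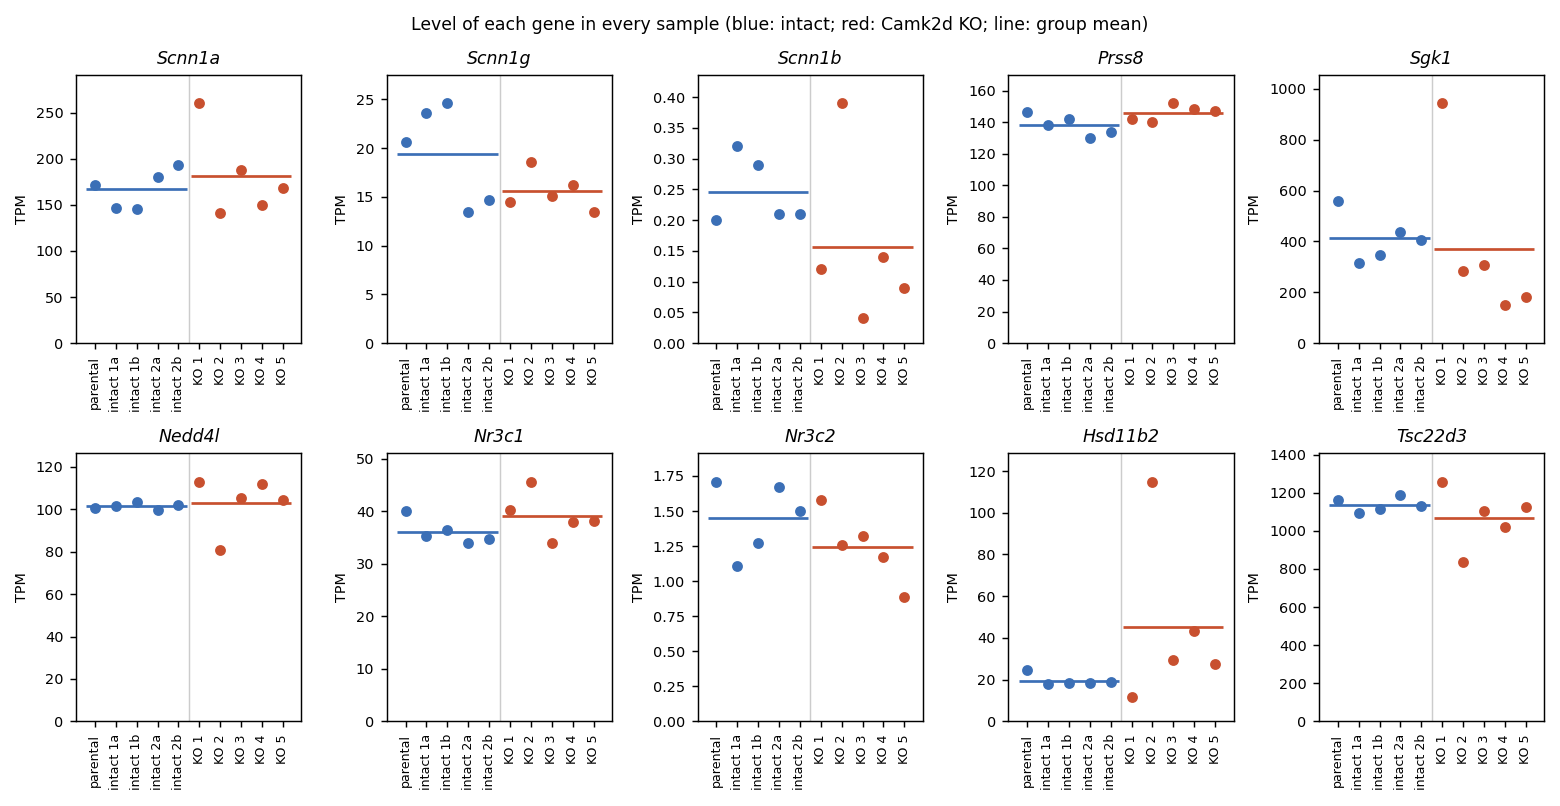
TPM (linear axis from 0) of each of the 10 genes in the 5 intact samples (blue) and the 5 Camk2d-KO clones (red), with the group mean as a line. Sgk1 stood at 943 TPM in KO 1 and Hsd11b2 at 115 TPM in KO 2, far from the other clones, whereas Prss8 kept between 129.7 and 152 TPM in all samples.

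To see whether loss of Camk2d changed this axis, the 5 KO clones were compared with the 5 intact samples. None of the 10 genes passed an adjusted p of 0.05 with limma on log2(TPM + 1), and 0 of 10 had an unadjusted p under 0.05. Over all genes tested, 1 gene (0.00500%), Camk2d itself, passed the adjusted threshold and 6.99% had an unadjusted p under 0.05. No gene of the axis had KO and intact samples that did not overlap, against 1.64% of all genes tested. In 5 of the 10 the KO mean was higher and in 5 it was lower, with a median log2 ratio of -0.04 beside 0.02 over all genes. The adjusted p-values ran from 0.759 to 0.986. The spread among KO clones differed widely between the genes, from Prss8, which was nearly level, to Sgk1 and Hsd11b2.

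The pore-forming alpha subunit gene Scnn1a was at 172 TPM in the parental line, 147 and 146 TPM in intact clone 1 and 181 and 193 TPM in intact clone 2. In KO 1 to KO 5 it was at 260, 141, 188, 149 and 168 TPM. KO 1 was above every intact sample and KO 2 just below every one, while the other 3 clones lay inside the intact range. The log2 ratio KO/intact was 0.09 (SE 0.16, adjusted p = 0.922 with limma), and without KO 1 it was -0.05. On chromosome 6, Ltbr (the lymphotoxin beta receptor gene, minus strand) ends 6773 bases before Scnn1a and Tnfrsf1a (a tumour necrosis factor receptor gene, plus strand) begins 4418 bases after it.

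The gamma subunit gene Scnn1g was at 20.6 TPM in the parental line, at 23.6 and 24.6 TPM in intact clone 1 and at 13.43 and 14.7 TPM in intact clone 2. The KO clones held 14.4, 18.6, 15.1, 16.2 and 13.45 TPM. All 5 KO clones lay inside the intact range, whose ends were set by the 2 intact clones. The log2 ratio KO/intact was -0.27 (SE 0.17, adjusted p = 0.769). It was -0.18 without intact 1b (adjusted p = 0.892) and -0.39 without intact 2a (adjusted p = 0.863).

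The beta subunit gene Scnn1b was near the bottom of the scale. It was at 0.20 TPM in the parental line, 0.32 and 0.29 TPM in intact clone 1 and 0.21 TPM in both samples of intact clone 2. In KO 1 to KO 5 it was at 0.12, 0.39, 0.04, 0.14 and 0.09 TPM. Clones 1, 3, 4 and 5 were below every intact sample and KO 2 was above every one. The log2 ratio was -0.11 (SE 0.08, adjusted p = 0.806 with limma), on a scale that compresses differences below 1 TPM. With a pseudocount of 0.1 in place of 1 it was -0.56 (adjusted p = 0.773), and without KO 2 it was -0.18 (95% interval -0.30 to -0.06, adjusted p = 0.460). The mean TPM in KO clones was 63.4% of that in intact samples, a mean raised by KO 2. The median was 0.12 TPM in KO clones and 0.21 TPM in intact samples. Values this low are deposited in steps of 0.01 TPM, and without counts their counting error cannot be given. In bulk RNA, fewer cells with a transcript and less of it per cell cannot be told apart, here or for the genes below.

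**Figure D2:**
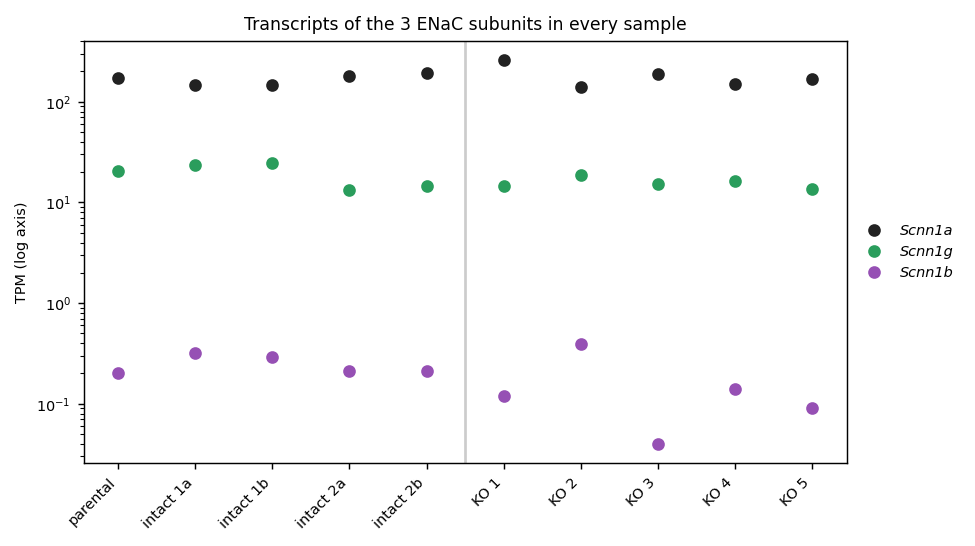
TPM on a log axis of Scnn1a, Scnn1g and Scnn1b in every sample, intact on the left and KO on the right of the line. The 3 subunits kept the same order in all 10 samples, with Scnn1b at 0.39 TPM or less.

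Because all 3 subunits form the channel, their transcripts were compared within each sample. Scnn1a made up 85.4% to 94.7% of the summed subunit TPM, Scnn1g 5.25% to 14.4% and Scnn1b 0.0197% to 0.243%. In intact samples, Scnn1g was 64.0 to 103 times as abundant as its neighbour Scnn1b, and in KO clones 47.7 (KO 2) to 377 (KO 3) times. Scnn1a was 459 to 920 times as abundant as Scnn1b in intact samples and 362 to 4697 times in KO clones. The log2 of Scnn1b/Scnn1a was -9.43 ± 0.48 in intact and -10.54 ± 1.37 in KO samples (SD, n = 5 each), a difference of -1.11 (two-sided exact permutation p = 0.159, 0.222 after adjustment over 4 ratios). For Scnn1b/Scnn1g it was -6.29 ± 0.27 in intact and -7.02 ± 1.06 in KO samples (SD, n = 5 each), a difference of -0.74 (exact permutation p = 0.167, adjusted 0.222). KO 2 was the only clone with either ratio above the intact samples. Without KO 2 the differences were -1.62 for Scnn1b/Scnn1a and -1.10 for Scnn1b/Scnn1g, each with an exact permutation p of 0.00794. The clone was singled out for its values, and leaving it out separates the groups by construction, so this p supports nothing. Without KO 3 the differences were -0.70 and -0.36. With a pseudocount of 1 the difference in Scnn1b/Scnn1g turned to 0.16. The log2 of Scnn1g/Scnn1a differed by -0.37 between KO and intact samples (exact permutation p = 0.294, adjusted 0.294).

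Prss8 encodes prostasin, a membrane-anchored protease that takes part in activating ENaC. Its level was 146 TPM in the parental line, 138 and 142 TPM in intact clone 1 and 129.7 and 134 TPM in intact clone 2. The KO clones had 142, 140.3, 152, 149 and 147 TPM. KO 3, KO 4 and KO 5 were above every intact sample, KO 1 and KO 2 were within the intact range, and the KO mean was 1.06 times the intact mean. The log2 ratio was 0.08 (SE 0.04, adjusted p = 0.759, two-sided exact permutation p = 0.0556). Prss8 varied less among KO clones than most genes: of the 9252 genes with a mean of at least 10 TPM, 4.19% had a smaller SD there. Over 122 bases, or 6.59% of its exonic length in GENCODE M21, Prss8 overlaps Kat8 (a histone acetyltransferase gene, 20.9 TPM) on the opposite strand. The kit does not mark strand, so reads there cannot be told apart.

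Sgk1 encodes the aldosterone- and glucocorticoid-induced kinase that relieves ENaC from NEDD4-2, and it is the gene with the palindrome shown above. It was at 558 TPM in the parental line, 314 and 348 TPM in intact clone 1 and 438 and 406 TPM in intact clone 2. In KO 1 to KO 5 it was at 943, 283, 306, 149 and 179 TPM. KO 1 was above every intact sample and the other 4 clones were below every one, so that the highest clone had 6.34 times the level of the lowest. The log2 ratio KO/intact was -0.46 (95% interval -1.40 to 0.48, adjusted p = 0.820 with limma). Without KO 1 it was -0.88 (95% interval -1.43 to -0.34, adjusted p = 0.456), without KO 4 -0.22 (adjusted p = 0.918) and without KO 5 -0.28 (adjusted p = 0.887). The SD among KO clones was 1.03 on the log2 scale, larger than in 99.3% of the 9252 genes above, and the SD among intact samples was 0.32, larger than in 97.2%.

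Nedd4l, which encodes NEDD4-2, was nearly constant in intact cells at 101 TPM in the parental line, 101 and 103 TPM in intact clone 1 and 99.9 and 102 TPM in intact clone 2. The KO clones had 113, 80.8, 105, 112 and 104 TPM. KO 2 was below every intact sample and the other 4 clones were above every one, reaching at most 1.11 times the intact mean. The log2 ratio was 0.01 (SE 0.08, adjusted p = 0.986). Its sign changed to -0.01 when TPM were rescaled by median ratios. Nedd4, the gene of a closely related ligase, was at 494 TPM in KO 2 and between 245 and 285 TPM in the other 9 samples, a gene chosen after its values were seen. Of the 50-base windows in Nedd4l transcripts, 99.95% occurred in no other gene of GENCODE M21.

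Both corticosteroid receptors were measured. Nr3c1, the glucocorticoid receptor gene, was at 39.98 TPM in the parental line, 35.3 and 36.5 TPM in intact clone 1 and 34.1 and 34.8 TPM in intact clone 2. Its level in KO 1 to KO 5 was 40.2, 45.7, 33.9, 37.95 and 38.1 TPM. KO 2 was highest and KO 3 lowest of the 10 samples, and the groups overlapped. The log2 ratio was 0.11 (SE 0.08, adjusted p = 0.802), and 0.05 without KO 2.

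Nr3c2, the mineralocorticoid receptor gene, was at 1.71 TPM in the parental line, 1.11 and 1.27 TPM in intact clone 1 and 1.67 and 1.5 TPM in intact clone 2. The KO clones had 1.58, 1.26, 1.32, 1.17 and 0.89 TPM. Only KO 5 was outside the intact range, below it. The log2 ratio was -0.13 (SE 0.11, adjusted p = 0.819), and -0.07 without KO 5. Nr3c1 was 20.4 to 31.8 times as abundant as Nr3c2 in intact samples and 25.4 to 42.8 times in KO clones. The difference of 0.34 in the log2 of Nr3c1/Nr3c2 had an exact permutation p of 0.111, or 0.222 after adjustment over the 4 ratios.

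Hsd11b2 encodes 11-beta-hydroxysteroid dehydrogenase type 2, which keeps natural glucocorticoids off the mineralocorticoid receptor. In intact cells it was at 24.5 TPM in the parental line, 17.8 and 18.3 TPM in clone 1 and 18.2 and 18.9 TPM in clone 2. In KO 1 to KO 5 it was at 11.5, 115, 29.3, 43.1 and 27.45 TPM. KO 1 was below every intact sample and the other 4 clones were above every one, the reverse of their order against intact samples for Sgk1. KO 2 had 5.89 times and KO 1 0.590 times the intact mean. The log2 ratio KO/intact was 0.79 (95% interval -0.23 to 1.81, adjusted p = 0.761 with limma). It was 1.17 without KO 1 (95% interval 0.33 to 2.01, adjusted p = 0.495) and 0.37 without KO 2 (95% interval -0.33 to 1.06, adjusted p = 0.799). The SD among KO clones was 1.16 on the log2 scale, larger than in 99.4% of the 9252 genes.

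Tsc22d3 encodes GILZ, a leucine zipper protein that is a standard readout of corticosteroid action and is also known to favour ENaC at the membrane. It was at 1162 TPM in the parental line, 1094 and 1112 TPM in intact clone 1 and 1188 and 1130 TPM in intact clone 2. The KO clones had 1259, 835, 1105, 1018 and 1127 TPM. KO 1 was highest and KO 2 lowest of the 10 samples. The log2 ratio was -0.10 (SE 0.10, adjusted p = 0.821), and -0.02 without KO 2. Among KO clones Tsc22d3 spread over 1.51 times from lowest to highest, against 6.34 times for Sgk1 and 9.98 times for Hsd11b2 in the same cells.

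**Figure D3:**
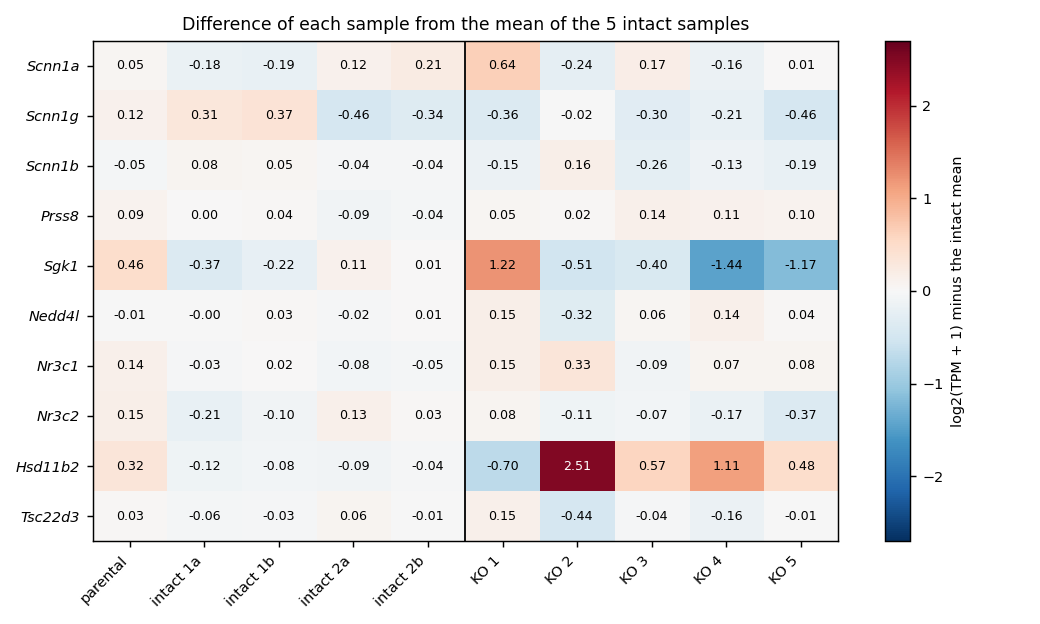
Difference of log2(TPM + 1) in each sample from the mean of the 5 intact samples, for the 10 genes (rows) in 10 samples (columns), red higher and blue lower. KO 1 was 1.22 above for Sgk1 and 0.70 below for Hsd11b2, and KO 2 was 2.51 above for Hsd11b2.

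Clone by clone, the exon 8 clones KO 1 and KO 2 held 11 of the 20 highest and lowest values, 7 of the 10 highest and 4 of the 10 lowest. Of the 9252 genes with a mean of at least 10 TPM, 50.9% had their highest and 35.6% their lowest value in one of these clones. With 10 genes in the axis, no excess is read from either count. Scnn1b and Nr3c2 have means under 10 TPM. KO 1 had the highest value of all 10 samples in 4 genes (Scnn1a, Sgk1, Nedd4l and Tsc22d3) and the lowest in 1 (Hsd11b2). KO 2 had the highest value in 3 genes (Scnn1b, Nr3c1 and Hsd11b2) and the lowest in 3 (Scnn1a, Nedd4l and Tsc22d3). KO 3 was highest for Prss8 and lowest for Scnn1b and Nr3c1. Large departures were found in exon 9 clones too, with Sgk1 in KO 4 and KO 5 at -1.44 and -1.17 from the intact mean on the log2(TPM + 1) scale. KO 1 and KO 2 also had the lowest Aqp2, at 1281 and 1618 TPM against 2856 to 3789 TPM in the other KO clones and 3773 to 5502 TPM in intact samples. In KO 2, Fxyd4 was at 194 TPM against 588 to 849 TPM in the other samples. The other principal cell markers were mixed. Avpr2 was also low, at 192 TPM in KO 1 and 114 TPM in KO 2, against 222 TPM or more in intact samples. Gata3 was not, at 251 and 256 TPM against 240 to 258 TPM in intact samples. Tfcp2l1 was above the intact range in KO 1 and below it in KO 2. Krt18 was below the intact range in KO 1 and inside it in KO 2. Aqp3 and Aqp4, both low, lay inside the intact range in both clones. The part of these markers in the values of the axis was not tested. With KO 1 left out, 2 of the 10 genes no longer overlapped between groups, Sgk1 with lower and Hsd11b2 with higher KO samples, against 3.12% of all genes. With KO 2 left out, 2 others no longer overlapped, Scnn1b with lower and Nedd4l with higher KO samples, against 2.83% of all genes. In each of these genes the clone left out was the only one on the other side of the intact range, so the separation follows from leaving it out, and nothing is read from the counts. In neither case did a gene of the axis pass the adjusted threshold.

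With both clones left out, an alternative added after their values were seen, the log2 ratio KO/intact was -1.003 for Sgk1 (adjusted p = 0.349 with limma) and 0.72 for Hsd11b2 (adjusted p = 0.304). For Scnn1b it was -0.19 (adjusted p = 0.400) and for Nedd4l 0.08 (adjusted p = 0.509).

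**Figure D4:**
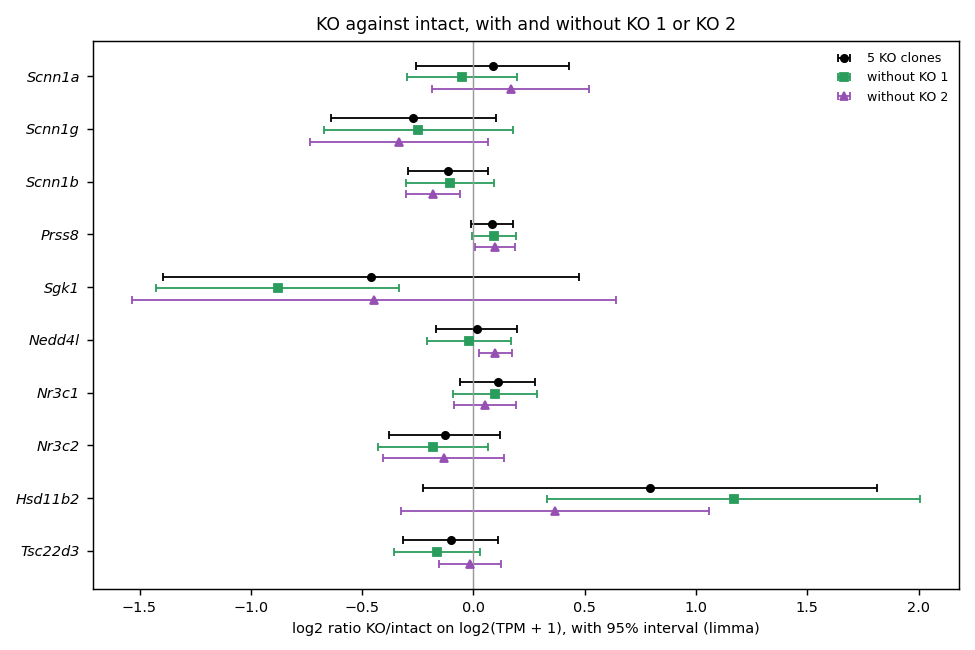
Log2 ratio KO/intact on log2(TPM + 1) with its 95% interval from limma for each gene, with all 5 KO clones (black circles), without KO 1 (green squares) and without KO 2 (purple triangles). The interval of Sgk1 ran from -1.40 to 0.48 with all clones and from -1.43 to -0.34 without KO 1.

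Intact lines were compared as well, since the 2 samples per intact clone show how much a line differs from another without any mutation. The comparison was a fit of all 10 samples, whose error pools the spread among the 5 KO clones with that within intact clones. For Sgk1 the SE was 0.73, against an SD of 0.09 within intact clones (log2). Such genes could hardly be called, so a low count does not show that the clones agree. At an adjusted p of 0.05 (limma), 0 of the 10 genes differed between intact clones 2 and 1, against 0.140% of all genes. At an unadjusted p under 0.05 it was 1 of 10, against 6.57%. The gene was Scnn1g, with a log2 difference of -0.74 for clone 2 minus clone 1 (SE 0.14, adjusted p = 0.194). Its level was 24.1 TPM in clone 1 and 14.1 TPM in clone 2 (means of 2 samples), the parental line lay between them, and without KO 2 in the fit the adjusted p was 0.0455. Samples of the 2 clones did not overlap in 8 of the 10 genes, all but Nedd4l and Hsd11b2, against 44.2% of all genes. Scnn1a and Sgk1 were both higher in clone 2, at 1.28 times the level of clone 1, whereas Scnn1b was at 0.689 times.

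Over the 8 cell lines, with 1 mean of log2(TPM + 1) each, 6 pairs of genes were correlated. None had a p under 0.05 after adjustment. Sgk1 and Tsc22d3 had a Pearson's r of 0.54 (exact permutation p = 0.175, adjusted 0.210) and a Spearman's rho of 0.79 (exact permutation p = 0.0279, adjusted 0.168). The r fell to 0.28 without KO 1 and KO 4, so it rests on those lines. Scnn1b and Scnn1g had an r of 0.67 (exact permutation p = 0.0723, adjusted 0.210) and a rho of 0.57 (exact permutation p = 0.151, adjusted 0.236), and r was 0.81 without KO 2 and KO 3. Scnn1a ran the other way, with an r of -0.55 to Scnn1b (exact permutation p = 0.156, adjusted 0.210) and -0.54 to Scnn1g (exact permutation p = 0.163, adjusted 0.210), and with a rho of -0.67 (p = 0.0831 by exact permutation, adjusted 0.236) and -0.52 (p = 0.197 by exact permutation, adjusted 0.236). Without KO 1 and KO 2 these r were -0.49 and -0.59. The remaining pairs were Nr3c1 with Tsc22d3 (r = -0.55, exact permutation p = 0.165, rho = 0.05, exact permutation p = 0.935) and Nr3c2 with Scnn1a (r = 0.50, exact permutation p = 0.212, rho = 0.55, exact permutation p = 0.171). For Nr3c1 with Tsc22d3 the r turned to 0.32 without KO 2 and KO 3, and for Nr3c2 with Scnn1a it was 0.83 without KO 5 and the parental line.

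The genes whose pattern over the 8 lines was most like that of a subunit were found by Pearson's r among the genes with a mean of at least 5 TPM (10453 for Scnn1a and Scnn1g, 10454 for Scnn1b). For Scnn1a they were Tmem59 (r = 0.97), its chromosomal neighbour Ltbr (r = 0.97) and Mbp (r = 0.97). Ltbr was at 90.1 to 101 TPM in intact samples and at 106.2 TPM in KO 1, a narrower range than that of Scnn1a, and the other neighbour Tnfrsf1a had an r of 0.09 with Scnn1a. For Scnn1b they were Nktr (r = 0.96), Slc25a47 (r = 0.95) and Sc5d (r = 0.94), and for Scnn1g Oip5os1 (r = 0.93), Prss16 (r = 0.93) and Trpm7 (r = 0.92). These are the highest of many values over 8 points from shared libraries, given as a description.

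Other genes of the same routes were grouped in lists. By limma 0 genes of any list had an adjusted p under 0.05, and the counts at an unadjusted p under 0.05 follow. The principal cell markers had 1 of 9 tested, Aqp2 (log2 ratio -0.89, SE 0.27, adjusted p = 0.565), and the intercalated cell, other kidney cell and acid-sensing lists had 0 of 3, 0 of 3 and 0 of 2. These counts stand against the 6.99% of all genes given above. Of the 12 channel proteases and their inhibitors, 11 were tested, 1 had an unadjusted p under 0.05, a share close to that of all genes, and the median log2 ratio was 0.07, beside 0.02 over all genes. That gene was Furin, the proprotein convertase that cleaves the alpha and gamma subunits. Furin was at 59.9, 59.7, 52.6, 55.4 and 56.9 TPM in the intact samples and at 65.0, 60.6, 69.8, 74.9 and 66.1 TPM in KO 1 to KO 5. Its KO clones were all above the intact samples, the nearest by less than 1 TPM, with a log2 ratio of 0.24 (SE 0.06, adjusted p = 0.524).

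Of the 12 genes for ubiquitination and 14-3-3 proteins, all tested, 0 had an unadjusted p under 0.05 and the median log2 ratio was 0.04. Ube2d3, a ubiquitin-conjugating enzyme gene, was at 523.21 to 539 TPM in intact and 355 to 522.85 TPM in KO samples (log2 ratio -0.17, SE 0.10, adjusted p = 0.759). The groups did not overlap but nearly touched, and KO 2 was lowest. The 14 genes of the SGK and WNK kinase route had a median of 0.09, and 2 of 14 had an unadjusted p under 0.05, both higher, where 6.99% of all genes had one in either direction (905 of those 1398 genes were higher, but 626 of 1287 with TPM rescaled by median ratios and 653 of 1252 with quantile normalization). These were Akt1 and Akt2, kinases related to SGK1 and activated by the same upstream kinases. Akt1 was at 522 to 562 TPM in intact and 566 to 655 TPM in KO samples (log2 ratio 0.15, adjusted p = 0.607). Akt2 was at 56.7 to 63.6 TPM in intact and 65.6 to 74.7 TPM in KO samples (log2 ratio 0.18, adjusted p = 0.524). Of the SGK1 paralogs, Sgk3 had a log2 ratio of 0.04 and Sgk2 of -0.11, with adjusted p-values of 0.884 and 0.820.

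A list of 17 genes around steroid receptors held chaperones, coregulators, chromatin factors and enzymes, not all of them receptor partners. Of these, 4 had an unadjusted p under 0.05 (3 higher, 1 lower), against 6.99% of all genes, and the median log2 ratio was 0.04. The lower gene, named to give both directions, was Hsp90aa1 (log2 ratio -0.15, SE 0.06, adjusted p = 0.659 with limma). Hsp90b1, a chaperone of the endoplasmic reticulum, was at 516 to 549 TPM in intact and 562 to 580 TPM in KO samples (log2 ratio 0.10, SE 0.04, adjusted p = 0.646). Of the 20 corticosteroid target genes, 19 were tested, 3 had an unadjusted p under 0.05 (1 higher, 2 lower), against 6.99% of all genes, and the median log2 ratio was -0.02. Bcl6, a transcriptional repressor gene, was at 45.2 to 50.4 TPM in intact and 51.6 to 62.6 TPM in KO samples, which did not overlap (log2 ratio 0.24, SE 0.06, adjusted p = 0.4996). Fkbp5, a standard glucocorticoid target, was at 264 to 297 TPM in intact samples and spread from 180.4 TPM in KO 2 to 360 TPM in KO 1, with a log2 ratio of -0.07 (adjusted p = 0.939). Fkbp5 was singled out after its values were seen, and other target genes differed from it. Of the 19 tested, KO 1 was highest in 4 (21.1%, against 19.5% of the 9252 genes) and lowest in 1 (5.26%, against 16.2%). KO 2 was highest in 4 (21.1%, against 31.3%), Bcl6 among them, and lowest in 7 (36.8%, against 19.4%). Of the 5 relatives of the channel in the acid-sensing family, Asic2, Asic4 and Asic5 were listed at 0 in every sample, and 2 were tested (median log2 ratio 0.08).

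**Figure D5:**
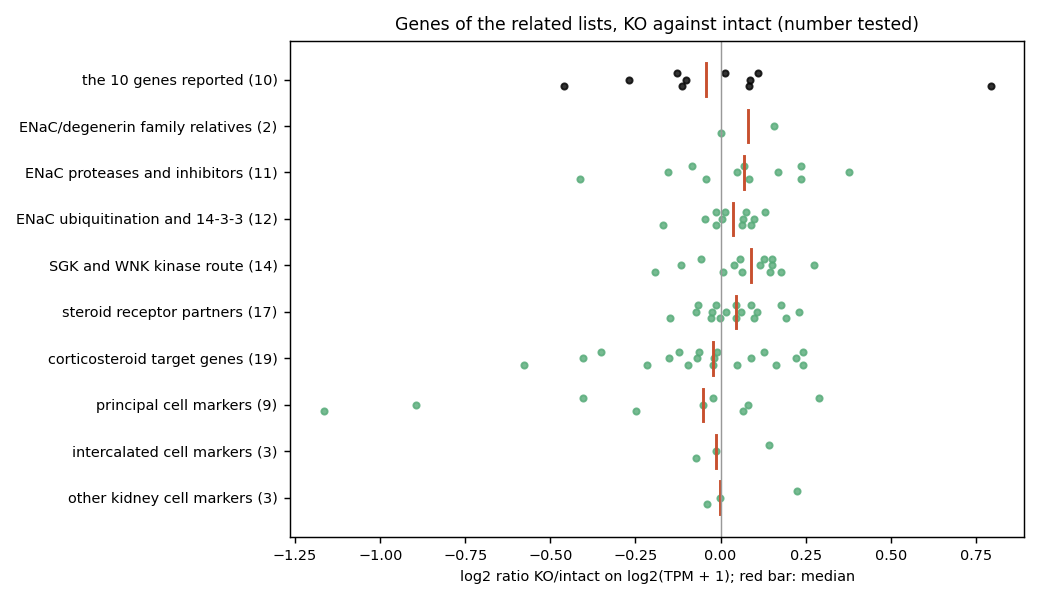
Log2 ratio KO/intact on log2(TPM + 1) of each tested gene (points) in the 10 genes of the axis and the related lists, with the median as a red bar. List medians lay between -0.05 and 0.09, and Hsd11b2 at 0.79 lay highest of the points shown.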

How the data were processed

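RNA-seq libraries of amplified full-length cDNA from 10 samples were sequenced as 50-bp pairs. The authors aligned reads with STAR and quantified genes with RSEM. The values used are the TPM the authors deposited, per Ensembl gene, with 2 decimals, from all 10 sample columns. Depth is unknown, so no counting interval is given. The authors' test on expected counts could not be repeated on TPM.

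Groups came from the sample labels. The labels do not say whether the 2 samples of an intact clone were separate cultures. The fit of KO against intact counts them as independent, while with the line as a random effect the correlation within lines was 0.60. The p-values of that fit mix the spread between lines with that within lines. Those between the intact clones rest also on the spread among KO clones. Within a clone, at most 0.316% of the genes at 1 TPM or more were listed with the same value in both samples.

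Values were taken as log2(TPM + 1) for the 20000 most abundant genes by mean and fitted with limma 3.58.1 in R 4.3.3 (eBayes with trend), with Benjamini-Hochberg adjustment over all of them and a threshold of 0.05. Fold changes on this scale understate those of genes with few TPM. Ratios within a sample were compared by a two-sided exact permutation test over 252 arrangements, whose smallest p is 0.00794. The procedure was tested on simulated data with independent samples, where no gene with few TPM was changed and the changes exceeded most log2 ratios here. That test does not cover paired samples of a clone, small changes or genes as low as Scnn1b and Nr3c2. Python 3.11.15 with pandas 2.3.3, numpy 2.4.6, scipy 1.17.1 and matplotlib 3.10.9 did the rest.

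The genes and lists were chosen with earlier results of these data known. From the lists, genes were named if they passed the threshold, if their groups did not overlap (up to 3 a list, mean of at least 1 TPM), or if they were the 3 most abundant markers, and up to 3 genes most like each subunit. Others are marked where they appear or were markers near 0, paralogs of Sgk1, chromosomal neighbours or overlapping genes. Alternatives were other pseudocounts (0.1, 0.5), gene filters, scalings and moderation, 1 value per cell line, the line as a random effect (statmod 1.5.0), and leaving out each sample. Positions come from GENCODE M21 on GRCm38, not from the authors' files, which used a later annotation.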

Additional observations from a re-analysis of the deposited data

Results flagged for a closer look

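In groups of 5 samples, on the TPM scale, a sample was marked when its gap to the nearest other, over the whole range, passed Dixon's 95% critical value of 0.71. Of 20 groups (10 genes, intact and KO), 4 were marked, where chance marks about 1 in 20 of groups of independent samples. The intact samples are not all independent, since 4 of the 5 are pairs from 2 clones. Sgk1 in KO 1, at 943.26 TPM, stood above the other KO clones with a ratio of 0.803. Scnn1b in KO 2, at 0.39 TPM, stood above the other KO clones (0.714), and Nedd4l in KO 2, at 80.82 TPM, stood below them (0.733). Among the intact samples, the parental line had 24.51 TPM of Hsd11b2, above the 4 samples of intact clones (0.837). On the log2(TPM + 1) scale of the fits, 2 of the 20 groups passed, with Nedd4l in KO 2 (0.764) and Hsd11b2 in the parental line (0.815), whereas the ratio was 0.611 for Sgk1 in KO 1 and 0.684 for Scnn1b in KO 2.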

How the results depend on the processing

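No gene of the axis was called between KO and intact samples under any of the alternatives run. The log2 ratio of Nedd4l changed sign with rescaling by median ratios (-0.0146) and quantile normalization (-0.0079), and ran from -0.0214 to 0.0985 when each sample was left out (negative without KO 1 or KO 4). For Scnn1a this range was -0.0517 to 0.168, negative only without KO 1. The count of genes whose groups did not overlap ran from 0 to 2 with a sample left out (2 without KO 1, 2 without KO 2). Between the intact clones the count called ran from 0 to 1 (Scnn1g without KO 2, log2 difference -0.74, over a range of -0.80 to -0.68). For Scnn1b/Scnn1g the log2 difference turned to 0.16 with a pseudocount of 1 (exact permutation p = 0.325), which exceeds every Scnn1b value, and ran from -1.10 to -0.36 with a sample left out. For Scnn1b/Scnn1a that range was -1.62 to -0.70. For Scnn1b itself the log2 ratio was -0.56 with a pseudocount of 0.1 and -0.20 with 0.5. The causes were not tested. In all, 402 values for single genes kept their direction and their side of the threshold, some with changes in size of over 1.5 times, and 107 for whole comparisons kept both or, as counts, stayed within 1.5 times. No paired analysis was possible because the replicate numbers do not pair KO samples with intact samples. TPM carry no depth, so the precision of Scnn1b and Nr3c2 is unknown, and 5 clones that differ from each other limit what a common shift could be seen at.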
